A study of Mus musculus with 12 samples.

Results

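Ubiquitin-specific proteases, the USP family, were followed through haematopoietic stem cells (HSCs) of Nras-mutant and wild-type mice. Members were the genes of the array's annotation whose symbol begins with Usp and a digit, with the Y-linked Usp9y left out, and where a gene had several probe sets, the brightest over all arrays stood for it. This gave 50 members among 18193 genes on the array. Of these, 45 passed a filter on low signals and were tested. The family was chosen by name, but Usp27x was selected on its signal differences between groups in earlier results of these same arrays, so its values are a description and carry no test.

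The HSCs had been sorted out of bone marrow, and RNA of 12 samples was hybridised to 12 Affymetrix arrays. Nras GFPhigh and Nras GFP- cells came from mice of genotype Nras G12D/+, which carry 1 oncogenic allele, and wild-type GFPhigh and wild-type GFP- cells from wild-type mice, with 3 biological replicates in each of the 4 groups. All mice drank doxycycline for 6 weeks and were followed for 12 weeks after it was withdrawn, and the labels call GFPhigh cells quiescent and GFP- cells cycling. The transgene that carries GFP, its driver, the way the Nras allele was switched on, the ages and any pooling of animals were not given in the labels. The labels name biological replicates without saying which animals they came from, so p-values measure the spread between these samples.

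USPs are cysteine proteases that cut ubiquitin from proteins, and so reverse the work of ubiquitin ligases. Removing ubiquitin can spare a protein from the proteasome, change its activity, or, on histones H2A and H2B, change how chromatin is transcribed and repaired. Usp22 and its close relatives Usp27x and Usp51 take turns as the protease of a module of the SAGA coactivator complex that strips ubiquitin from histone H2B, and Usp27x is also known to stabilise the cell death protein Bim (Bcl2l11). In mouse HSCs, loss of Usp3, Usp10 or Usp16 is known to disturb stem cell function.

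Array medians ran between 44 and 129.6 MAS5 units. All 9 HSC markers on the array (Kit and Procr among them) were above the array median on every array, except Tek in Nras GFP- replicate 1. In limma's array weights, which fall with the disagreement of an array with its group, 4 arrays stood low at 0.308 to 0.522, against 0.903 to 2.46 in the others. They were Nras GFPhigh replicates 1 and 2, Nras GFP- replicate 1 and wild-type GFPhigh replicate 2. The summed signal of 9 granulocyte markers was 42616.5, 56984.5 and 6014.5 in Nras GFPhigh replicates 1 to 3, against 4287.5 to 5068.8 in Nras GFP-, 952.6 to 12459.2 in wild-type GFPhigh, 2503.4 to 13101.4 in wild-type GFP- cells. All 9 were above the array median in Nras GFPhigh replicates 1 and 2, and 7 in replicate 3, where Elane and Lcn2 were below it. That of 9 stromal and endothelial markers was 4823.6, 4274.8 and 1114.9 in the same arrays, against 219.4 to 713.1 in Nras GFP-, 374.6 to 768.6 in wild-type GFPhigh, 926.9 to 1078.9 in wild-type GFP- cells, and 6, 6 and 3 of the 9 were above the array median in Nras GFPhigh replicates 1 to 3. The sum of 6 monocyte markers was 10768, 10854.9 and 3774.6 in Nras GFPhigh replicates 1 to 3, against 2937.5 to 4312.3 in Nras GFP-, 3157.6 to 4804 in wild-type GFPhigh, 3578.7 to 4416.8 in wild-type GFP- cells, with Csf1r below the array median in all 3. That of 8 B and T cell markers was 1148.9, 2600.3 and 517.2, against 294.7 to 737.2 in Nras GFP-, 484.8 to 775 in wild-type GFPhigh, 327.1 to 795.1 in wild-type GFP- cells, and 4, 4 and 2 of them were above the array median in the Nras GFPhigh arrays. These sums stand beside every value of Nras GFPhigh cells given here, and their part in those values was not tested. Replicate 3 of every group read 91.8 to 205.1 for Xist, the X-inactivation transcript, against 5773.4 to 11480.7 in replicates 1 and 2. The Y-linked Eif2s3y read 3876.6 to 4544.9 in replicate 3, against 2.3 to 674.7, and the Y-linked Kdm5d 410.5 to 2150.8, against 5.8 to 77.6. By these signals the samples numbered 3 were male and those numbered 1 and 2 female.

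The promoters of 2 members that were low in Nras GFPhigh cells are shown for the sequence context of the change, as the 250 bases before the annotated start, from RefSeq on GRCm38.p6, 5′ to 3′ on the gene's strand. Usp27x lies on the minus strand with its promoter at chrX:7375831-7376080, and Usp12 on the minus strand with its promoter at chr5:146794957-146795206. Capitals mark the GC box GGGCGG on either strand, and neighbouring GC boxes may overlap.
Usp27x: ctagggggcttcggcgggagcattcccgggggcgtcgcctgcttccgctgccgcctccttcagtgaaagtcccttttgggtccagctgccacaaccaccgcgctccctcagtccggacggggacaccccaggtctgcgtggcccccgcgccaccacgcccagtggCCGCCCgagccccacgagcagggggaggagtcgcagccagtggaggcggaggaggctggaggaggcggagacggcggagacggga
Usp12: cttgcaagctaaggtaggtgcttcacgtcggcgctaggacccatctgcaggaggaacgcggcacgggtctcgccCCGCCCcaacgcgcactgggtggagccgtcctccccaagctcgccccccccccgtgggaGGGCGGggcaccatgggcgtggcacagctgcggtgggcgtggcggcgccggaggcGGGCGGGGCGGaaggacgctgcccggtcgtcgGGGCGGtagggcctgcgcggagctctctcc
The Usp27x stretch held 24 CpG dinucleotides, 72.4% G and C and 1 GC box, and that of Usp12 held 30, 74.8% and 5. Over the 38 promoters found for 37 members the median was 23.5 CpG, against 6 over all 32851 promoters. A GC box was present in 25 of the 38 and in 32.7% of all promoters. The other letters searched, on both strands, were CCGGAAG (ETS core, 6.91% of all promoters), CCAAT (33.8%), TGANTCA (AP-1, 6.75%), TGACGTCA (CRE, 1.55%) and CACGTG (E-box, 6.02%), and none of these strings was in either stretch shown.

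Usp27x, an X-linked gene without introns, was lowest in Nras GFPhigh cells and highest in wild-type GFPhigh cells. Its signal was 57.7, 94.4 and 148.9 in Nras GFPhigh cells, 955.5, 1838.3 and 1337.9 in Nras GFP- cells, 2330.4, 4343.3 and 1739 in wild-type GFPhigh cells and 981.9, 325.9 and 256.5 in wild-type GFP- cells, in the order of the replicates. Every Nras GFPhigh array lay below every other array, and every wild-type GFPhigh array lay above every Nras GFP- array except replicate 2, whose 1838.3 exceeded the lowest wild-type GFPhigh value. The mean log2 signal was 6.54 ± 0.68 in Nras GFPhigh, 10.38 ± 0.47 in Nras GFP-, 11.35 ± 0.67 in wild-type GFPhigh and 8.76 ± 1.03 in wild-type GFP- cells (SD, n = 3 each).

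**Figure D1:**
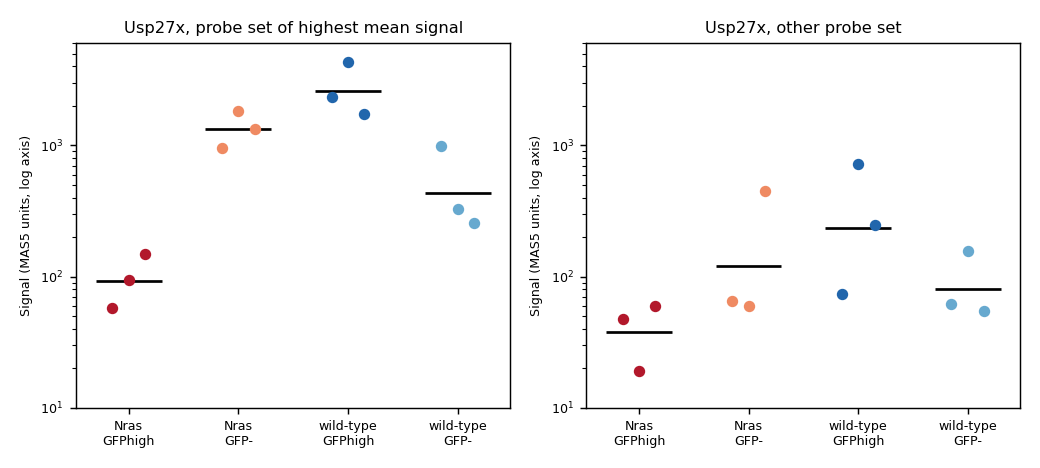
Signal of the Usp27x probe sets in MAS5 units on a log axis, with a point for each array and a bar at the geometric mean of the 3 arrays of a group. In the left panel the Nras GFPhigh arrays, at 57.7 to 148.9, lie below all others, and the right panel shows the dimmer probe set.

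The label difference ran in opposite directions in the genotypes. GFPhigh minus GFP- was -3.83 (log2) in Nras cells, 14.3-fold lower, and 2.58 in wild-type cells, 5.99-fold higher. Set by population, Nras minus wild-type was -4.80 in GFPhigh cells, 27.9-fold lower, and 1.61 in GFP- cells, where Nras replicate 1 lay below wild-type replicate 1. The label difference in Nras minus that in wild-type cells was -6.42, a description with no test. Averaged over both genotypes the label difference was -0.63, since the opposite differences offset each other.

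The other Usp27x probe set was dimmer, and on the Nras GFPhigh arrays it was below the array median. Of 3 arrays in each other group, it was above the median on 3 Nras GFP-, 2 wild-type GFPhigh and 1 wild-type GFP- arrays. It read 47.2, 19 and 59.8 in Nras GFPhigh cells, 64.6, 59.6 and 450.1 in Nras GFP- cells, 73.1, 717.7 and 247.4 in wild-type GFPhigh cells and 62, 156.2 and 54.3 in wild-type GFP- cells. Its Nras minus wild-type difference was -2.64 in GFPhigh cells, and its GFPhigh minus GFP- difference was -1.67 in Nras and 1.54 in wild-type cells, so the directions were those of the brighter probe set and the sizes smaller. Nras GFP- replicate 3 and wild-type GFPhigh replicate 2 were the highest arrays on this probe set, and all Nras GFPhigh arrays were below 60.

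Without the 4 arrays of low weight, Nras minus wild-type in GFPhigh cells was -3.76, and GFPhigh minus GFP- was -3.40 in Nras and 2.21 in wild-type cells. Between the samples numbered 3 alone, these differences were -3.55, -3.17 and 2.76. Nras GFPhigh replicate 3 is the array of that group with the lowest granulocyte and stromal marker sums, and its Usp27x signal was 148.9. The part of the markers in the Usp27x difference was not tested. In bulk RNA, fewer cells that express a gene and less of its RNA per cell cannot be told apart.

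Usp22, the best known protease of the SAGA module, was also lowest in Nras GFPhigh cells. Its signal was 79.3, 363.4 and 140 in Nras GFPhigh cells, 2037.1, 2415.1 and 1002 in Nras GFP- cells, 1003, 1900.3 and 943 in wild-type GFPhigh cells and 1663.2, 518.5 and 1268 in wild-type GFP- cells. All Nras GFPhigh arrays lay below all others, and the other 3 groups overlapped. GFPhigh minus GFP- was -3.42 ± 0.72 (log2, SE) in Nras cells, with an unadjusted p of 0.000403 and an adjusted p of 0.13 from limma, and 0.24 in wild-type cells. Nras minus wild-type in GFPhigh cells was -2.93 ± 0.72 (adjusted p 0.409), and no Usp22 comparison passed the adjusted threshold of 0.05. The interaction, the label difference in Nras minus that in wild-type cells, was -3.66 ± 1.02 (adjusted p 0.956).

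The other Usp22 probe set gave far smaller differences. It read 387, 299.5 and 453.4 in Nras GFPhigh cells, 828.7, 615.3 and 293.3 in Nras GFP- cells, 507.6, 220 and 535.5 in wild-type GFPhigh cells and 793.7, 283.5 and 562.9 in wild-type GFP- cells. Nras minus wild-type in GFPhigh cells was -0.06 on this probe set, and GFPhigh minus GFP- in Nras cells -0.50. On the brighter probe set the Nras minus wild-type value in GFPhigh cells was -2.80 without the 4 arrays of low weight and -2.75 between the samples numbered 3. Usp51, the other relative, was not analysed here.

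The remaining subunits of the module were described beside them. Of 5 tested partners, among them Atxn7, Atxn7l3 and Eny2, which hold and activate the protease, 0 were at an unadjusted p under 0.05 in limma in any of the 4 comparisons between pairs of groups, and 0 at an adjusted p under 0.05. Of all genes 8.29% and 4.39% stood under the unadjusted 0.05 in Nras against wild-type GFPhigh and GFP- cells, and 12.2% and 2.2% in GFPhigh against GFP- Nras and wild-type cells, so a count of 0 of 5 is near the background. Atxn7l3 read 520.1, 698 and 362.5 in Nras GFPhigh cells, 904.6, 924 and 406.6 in Nras GFP- cells, 377.7, 894.6 and 327.1 in wild-type GFPhigh cells and 585.1, 630.1 and 529 in wild-type GFP- cells, and the groups overlapped throughout. Nras minus wild-type in GFPhigh cells was 0.08 ± 0.64 (log2, SE). Eny2 had -0.05 ± 0.27 and Atxn7 -0.16 ± 0.54 in the same comparison.

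Of 16 subunits of the rest of SAGA, 11 were lower and 5 higher in Nras than in wild-type GFPhigh cells, where 46.1% of all genes were higher, with a median log2 difference of -0.54 against -0.09 over all 12083 genes tested, and 0 passed the adjusted threshold. At an unadjusted p under 0.05 stood 2 of them, both lower, against 5.12% of all genes lower. Supt3 had -1.86 ± 0.70 and Taf10 -1.65 ± 0.75 (log2, SE, adjusted p 0.531 and 0.589). In wild-type cells 11 of 16 were higher in GFPhigh than in GFP- cells, against 47.8% of all genes, and in Nras cells 4 of 16, against 53.2%.

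Over the whole family, limma called 0 of the 44 tested members other than Usp27x at an adjusted p under 0.05 in each of 7 comparisons. Among all 12083 genes the share called was 0% in 6 of these comparisons and 0.00828% in Nras against wild-type over both populations. At an unadjusted p under 0.05 stood 4 members in Nras against wild-type GFPhigh cells, all lower and Usp50 among them, whose direction the filter set, against 5.12% of all genes lower and 3.17% higher. In GFP- cells 2 members were higher and 2 lower, against 0.968% and 3.42%. Between GFPhigh and GFP- cells the counts were 2 higher and 3 lower in Nras mice, against 6.2% and 5.97%, and 1 higher and 0 lower in wild-type mice, against 1.05% and 1.15%.

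The interaction had 1 member higher and 3 lower under 0.05, Nras against wild-type over both populations 0 higher and 2 lower, and GFPhigh against GFP- over both genotypes 2 higher and 2 lower. In shares under 0.05, Nras against wild-type had 9.09% of members against 8.29% of all genes in GFPhigh cells, 9.09% of members against 4.39% of all genes in GFP- cells and 4.55% of members against 7.78% of all genes over both. GFPhigh against GFP- had 11.4% of members against 12.2% of all genes in Nras cells, 2.27% of members against 2.2% of all genes in wild-type cells and 9.09% of members against 8.87% of all genes over both, and the interaction 9.09% of members against 4.68% of all genes. The share of members was above that of all genes by more than 1 percentage point in Nras against wild-type GFP- cells and in the interaction, each resting on 4 members, and no test was made of the shares. Usp50 is among the members counted as lower in the 3 comparisons of Nras with wild-type cells. It passed the filter on low signals through wild-type arrays alone, so its lower value was built in, and without it 3 of 43 members were lower under 0.05 in GFPhigh cells, 2 higher and 1 lower in GFP- cells (6.98%), and 1 lower over both. The 1 lower member left in GFP- cells was Usp30, which passed the filter through arrays of groups other than Nras GFP-. It is also counted as higher in GFPhigh against GFP- cells, in Nras mice and over both genotypes. The 4 comparisons between pairs of groups share arrays.

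Groups that did not overlap were counted in the same 44 members. Nras against wild-type gave 5 higher and 6 lower members, against 5.12% and 7.37% of all genes in GFPhigh cells, and 2 higher and 6 lower members, against 4.07% and 6.72% of all genes in GFP- cells. GFPhigh against GFP- gave 2 higher and 3 lower members, against 6.7% and 6.21% of all genes in Nras cells, and 1 higher and 4 lower members, against 5.3% and 5.81% of all genes in wild-type cells. Usp50 is among those lower in both populations, and without it the lower members numbered 5 and 5. Usp30 remains among those lower in Nras than in wild-type GFP- cells, and among those higher in GFPhigh than in GFP- Nras cells. It passed the filter through arrays of groups other than Nras GFP-, so its place in these counts is no support for a difference.

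The median over the 45 members was small in every comparison. It was -0.11 against -0.09 over all genes tested for Nras minus wild-type in GFPhigh cells, and -0.08 against -0.17 in GFP- cells. For GFPhigh minus GFP- it was -0.20 against 0.08 in Nras and -0.20 against -0.03 in wild-type cells, where 32 of 45 members were lower. Of the 45, 20 (against 46.1% of all genes) were higher in Nras than in wild-type GFPhigh cells, and 19 (against 40.6% of all genes) in Nras than in wild-type GFP- cells. In Nras cells 20 (against 53.2% of all genes) were higher in GFPhigh than in GFP- cells, and in wild-type cells 13 (against 47.8% of all genes). The interaction was above 0 for 22 (against 53.9% of all genes), Nras over wild-type in both populations for 20 (against 40.6% of all genes), and GFPhigh over GFP- in both genotypes for 17 (against 51% of all genes). Within groups the log2 SD of a member had a median of 0.92, against 1.04 over all genes, and 11 of 45 members were under 0.5. Usp15 (0.32), Usp7 (0.34), Usp47 (0.35) and Usp9x (0.36) had the smallest SDs.

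**Figure D2:**
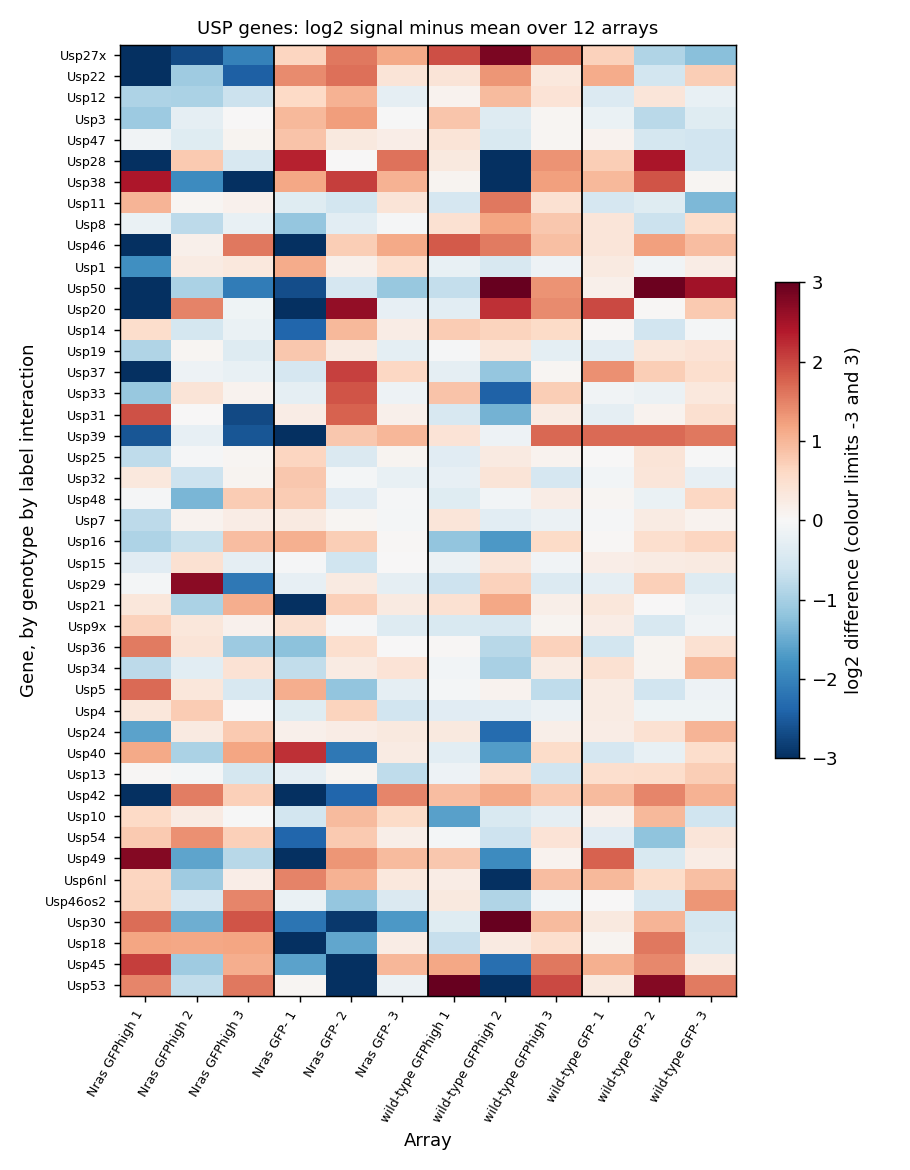
Log2 signal of the 45 tested members (rows) on the 12 arrays (columns), as the difference from the gene's own mean over all arrays, with colours limited at -3 and 3 and rows ordered by the interaction. Usp27x and Usp22, in the top rows, are low on all 3 Nras GFPhigh arrays, while most other rows vary among the replicates of a group.

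**Figure D3:**
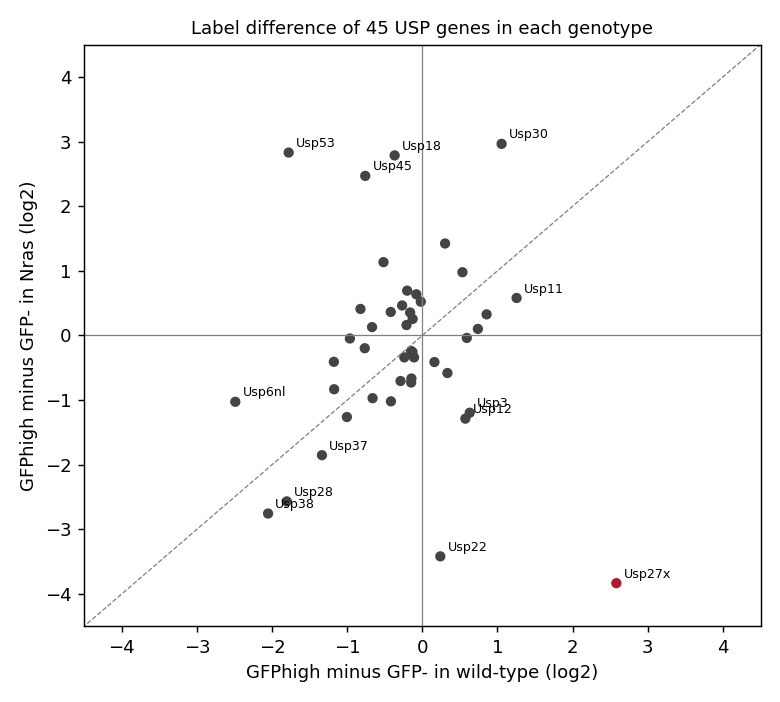
Difference between GFPhigh and GFP- cells (log2) in Nras mice on the vertical axis and in wild-type mice on the horizontal axis, with a point for each of the 45 tested members and a dashed line of equal differences. Usp27x (red) lies in the corner of opposite signs, at -3.83 in Nras and 2.58 in wild-type cells, and Usp22 at -3.42 and 0.24.

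Usp1, Usp12 and Usp46 share an activating partner, the WD-repeat protein Wdr48 (UAF1). Usp12, which also acts on histones, read 741.3, 730.5 and 898.5 in Nras GFPhigh cells, 2117.7, 2881.1 and 1159.4 in Nras GFP- cells, 1500.5, 2703.6 and 1855.5 in wild-type GFPhigh cells and 1056.7, 1812.7 and 1195.2 in wild-type GFP- cells. The 3 Nras GFPhigh arrays lay below all other arrays. Nras minus wild-type in GFPhigh cells was -1.32 ± 0.48 (log2, SE, unadjusted p 0.0163, adjusted p 0.524), and GFPhigh minus GFP- in Nras cells was -1.29 ± 0.48 (adjusted p 0.341). Its interaction was -1.86 ± 0.68 (adjusted p 0.956). The other probe sets of Usp12 went the other way in Nras cells, with GFPhigh minus GFP- at 0.97 and 1.58.

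Usp1 removes ubiquitin from Fancd2 and Pcna and so closes DNA repair steps. It read 858.4, 3616.9 and 3823.8 in Nras GFPhigh cells, 6690.2, 3391.9 and 4362.1 in Nras GFP- cells, 2630.1, 2193.5 and 2752.9 in wild-type GFPhigh cells and 3721.7, 2861.1 and 3556.5 in wild-type GFP- cells. Every wild-type GFPhigh array lay below every wild-type GFP- array, with a difference of -0.42 ± 0.49 (log2, SE, adjusted p 1), and in Nras cells GFPhigh minus GFP- was -1.02 ± 0.49 (adjusted p 0.428). Usp46 read 19.1, 789.4 and 2107.1 in Nras GFPhigh cells, 18.7, 1180.2 and 1558.9 in Nras GFP- cells, 2515.1, 2067.1 and 1319.1 in wild-type GFPhigh cells and 902.1, 1650.6 and 1346.5 in wild-type GFP- cells, with replicate 1 of both Nras groups far below the rest. Among 4 tested partners, Wdr48 had -1.44 ± 0.87 for GFPhigh minus GFP- in Nras cells and -0.27 ± 0.87 in wild-type cells. Atad5, which brings Usp1 and Wdr48 to Pcna, was at -2.82 ± 1.07 in wild-type cells (unadjusted p 0.0209, adjusted p 1). Wild-type GFPhigh replicate 2, an array of low weight, read 34.6 for Atad5, and without the 4 such arrays the difference was -1.45.

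Usp18 removes the ubiquitin-like ISG15 from proteins and restrains signalling at the type I interferon receptor. Its signal was 350.7, 343.6 and 352.1 in Nras GFPhigh cells, 13.7, 52.3 and 180.6 in Nras GFP- cells, 95.2, 187.4 and 220.6 in wild-type GFPhigh cells and 163.8, 463.7 and 111.6 in wild-type GFP- cells. The Nras GFPhigh arrays lay close together, above all Nras GFP- and all wild-type GFPhigh arrays, but wild-type GFP- replicate 2 was higher still. GFPhigh minus GFP- was 2.79 ± 0.95 (log2, SE, unadjusted p 0.0118, adjusted p 0.301) in Nras and -0.37 ± 0.95 in wild-type cells, with an interaction of 3.15 ± 1.35 (adjusted p 0.956). Nras GFP- replicate 1, an array of low weight, had the lowest value, and without the 4 such arrays the Nras difference was 1.86 and the interaction 2.35. Between the samples numbered 3 alone, GFPhigh minus GFP- was 0.96 in Nras and 0.98 in wild-type cells. Usp25, which acts in innate immune signalling, had -0.34 ± 0.38 and -0.11 ± 0.38 in the same comparisons.

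**Figure D4:**
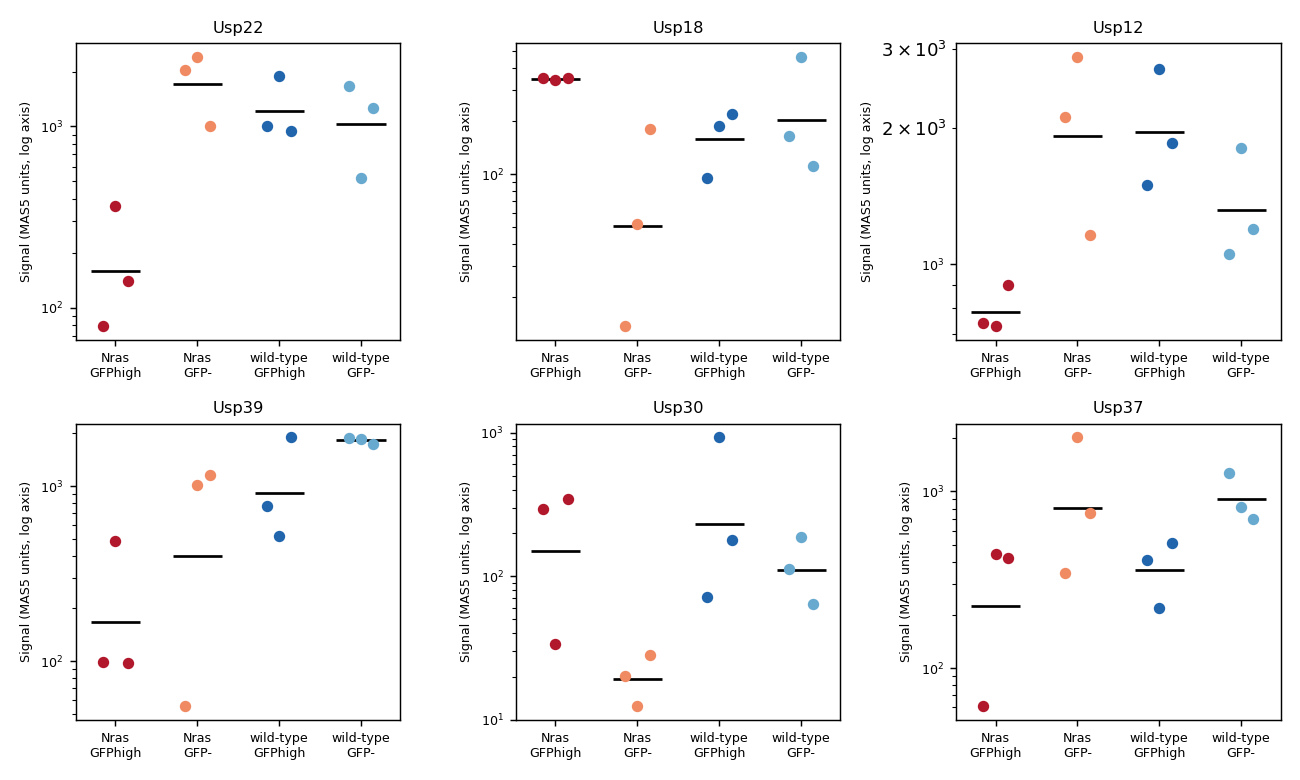
Signal in MAS5 units, on log axes that differ between panels, of Usp22, Usp18, Usp12, Usp39, Usp30 and Usp37, with a point for each array and a bar at the geometric mean of a group. Nras GFPhigh arrays lie below all others for Usp22 and Usp12, and the wild-type GFP- arrays of Usp39 lie between 1743.1 and 1890.1.

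Several members act on the cell cycle. Usp37, which stabilises cyclin A at the entry into S phase, read 60.7, 440.2 and 421.1 in Nras GFPhigh cells, 345.7, 2030.7 and 755.7 in Nras GFP- cells, 409.6, 218.8 and 508.6 in wild-type GFPhigh cells and 1276.3, 819.6 and 701.2 in wild-type GFP- cells. GFPhigh minus GFP- over both genotypes was -1.59 ± 0.63 (log2, SE, unadjusted p 0.0256, adjusted p 0.528), and the other probe set gave -1.65. In wild-type cells all GFPhigh arrays lay below all GFP- arrays, while in Nras cells the groups overlapped. The G2/M marker list, with 11 genes on the array, had summed signals of 10267.3, 14138.3 and 5938.7 in Nras GFPhigh, 22250, 7687.1 and 23131.9 in Nras GFP-, 6659.4, 4097.8 and 5635.3 in wild-type GFPhigh and 13074.2, 8529.2 and 10382.4 in wild-type GFP- cells, and its part in the Usp37 difference was not tested.

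Usp39, a splicing factor that has lost protease activity, had lower signals in Nras cells without passing the adjusted threshold. It read 98.4, 484.9 and 97.4 in Nras GFPhigh cells, 55.2, 1009.3 and 1151.5 in Nras GFP- cells, 768.6, 520.7 and 1904.1 in wild-type GFPhigh cells and 1890.1, 1867.7 and 1743.1 in wild-type GFP- cells. Over both populations Nras minus wild-type was -2.32 ± 0.77 (log2, SE, unadjusted p 0.00999, adjusted p 0.579), with -2.09 on the other probe set. The Nras arrays were lower than the wild-type arrays within GFP- cells and within GFPhigh cells without overlap, and -2.45 ± 1.09 was the difference in GFPhigh cells (adjusted p 0.589). Nras GFP- replicate 1 had the lowest signal, and without the 4 arrays of low weight the difference in GFP- cells was -0.77, against -2.19 with them.

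Usp28, which stabilises Myc, and Usp16 and Usp3, which remove ubiquitin from histone H2A, belong to the same group. Usp28 had -2.57 ± 1.58 (log2, SE) for GFPhigh minus GFP- in Nras and -1.80 ± 1.58 in wild-type cells, and Usp16 had -0.83 ± 0.76 and -1.17 ± 0.76, all at an unadjusted p over 0.05. Usp28 was above the array median on 6 arrays, none of them Nras GFPhigh. It thus passed the filter through the other groups, so its lower value in Nras GFPhigh cells is no support for a difference. The other Usp16 probe set ran the other way in Nras cells, with 4.67, and gave 0.03 in wild-type cells. Usp3 read 541.9, 958.4 and 1176.9 in Nras GFPhigh cells, 2299.2, 2765.3 and 1156.7 in Nras GFP- cells, 2078.3, 893.8 and 1208.5 in wild-type GFPhigh cells and 1010.8, 665.3 and 900.5 in wild-type GFP- cells. Nras minus wild-type was 1.20 ± 0.55 in GFP- cells (unadjusted p 0.0476, adjusted p 0.983), and GFPhigh minus GFP- was -1.20 ± 0.55 in Nras cells (adjusted p 0.408), with an interaction of -1.83 ± 0.78 (adjusted p 0.956). Its 5 probe sets disagreed, running from -2.08 to 1.20 for Nras minus wild-type in GFP- cells. Usp36, a nucleolar protease, had 0.52 ± 0.70 and -0.02 ± 0.70 for the label difference in Nras and wild-type cells.

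Members that act on p53 and its ligase Mdm2 were tested on 8 genes, and 0 of them stood at an unadjusted p under 0.05 in the 4 comparisons between pairs of groups. Of all genes 8.29% and 4.39% stood under it in Nras against wild-type GFPhigh and GFP- cells. In GFPhigh against GFP- cells the shares were 12.2% in Nras and 2.2% in wild-type cells, so 0 of 8 is near the background. Usp7, which removes ubiquitin from both p53 and Mdm2, read 2128.5, 3921.3 and 4236.2 in Nras GFPhigh cells, 4424.3, 3774 and 3493.8 in Nras GFP- cells, 4667.6, 2947.4 and 3252.6 in wild-type GFPhigh cells and 3593.5, 4354.9 and 3902.4 in wild-type GFP- cells. Its differences were -0.11 ± 0.30 (log2, SE) for Nras minus wild-type in GFPhigh cells and -0.24 ± 0.30 for GFPhigh minus GFP- in Nras cells. The other Usp7 probe sets disagreed in sign, running from -0.003 to 0.89 in the first comparison and from -0.37 to 2.69 in the second. Usp10, which deubiquitinates p53 in the cytoplasm, was higher in all Nras than in all wild-type GFPhigh arrays, with 948, 731.4 and 620.7 against 201.3, 452.2 and 514 and a difference of 1.07 ± 0.68 (adjusted p 0.719).

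Usp15, Usp4 and Usp11 are close relatives that act on TGF-beta receptors and SMAD proteins. Usp15 read 2078.8, 3621.5 and 2193 in Nras GFPhigh cells, 2579.7, 1732.5 and 2644.6 in Nras GFP- cells, 2324.8, 3387.1 and 2458.1 in wild-type GFPhigh cells and 3040.7, 3118.6 and 3166.5 in wild-type GFP- cells. On this probe set the largest difference between a pair of groups was -0.45 (log2), for Nras minus wild-type in GFP- cells. The other Usp15 probe sets ran from -3.10 to 0.26 in that comparison. Usp11, which also binds Brca2, read 3017.6, 1556.9 and 1642.4 in Nras GFPhigh cells, 1165.1, 1013 and 1958.1 in Nras GFP- cells, 1055.7, 4497.2 and 2051.1 in wild-type GFPhigh cells and 1062.2, 1156.3 and 584 in wild-type GFP- cells. GFPhigh minus GFP- over both genotypes was 0.92 ± 0.41 (log2, SE, unadjusted p 0.0423, adjusted p 0.551), and 1.25 ± 0.58 in wild-type cells (adjusted p 1). Wild-type GFPhigh replicate 2, an array of low weight, was its highest value, and without the 4 such arrays the wild-type difference was 0.72. Usp4 was higher in all Nras than in all wild-type GFPhigh arrays, by 0.65 ± 0.43 (adjusted p 0.729). Its other probe set ran the other way in that comparison, with -1.54.

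Usp9x, which spares Smad4 and the survival protein Mcl1 among others, read 5198.6, 4055.2 and 3498.4 in Nras GFPhigh cells, 4523.6, 3164.5 and 2461.4 in Nras GFP- cells, 2328, 2318.1 and 3400.1 in wild-type GFPhigh cells and 3763.4, 2296.7 and 2976.6 in wild-type GFP- cells. Nras GFPhigh arrays lay above wild-type GFPhigh arrays, by 0.67 ± 0.32 (log2, SE, adjusted p 0.621). The other Usp9x probe sets disagreed in sign, running from -0.43 to 0.32 in that comparison. Usp9x, Usp11, Usp26 and Usp27x are the members on the X chromosome. Between replicate 3 and replicates 1 and 2, which differ in Xist, their mean log2 difference was -0.11 for Usp9x, -0.14 for Usp11, -0.015 for Usp26 and -0.25 for Usp27x, against -5.94 for Xist, and the ranges of all 4 overlapped between these replicates.

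Of the members that work with the proteasome or on free ubiquitin chains, Usp14 trims ubiquitin at the proteasome, and Usp5 takes unanchored chains apart. Usp13 is a close relative of Usp5. Usp14 read 2538.2, 1232.9 and 1550 in Nras GFPhigh cells, 340.6, 3472.4 and 2083.1 in Nras GFP- cells, 2989.2, 2803.9 and 2624.2 in wild-type GFPhigh cells and 1827.3, 1185.8 and 1716.1 in wild-type GFP- cells, with all wild-type GFPhigh arrays above all wild-type GFP- arrays, by 0.85 ± 0.69 (log2, SE, adjusted p 1). The other Usp14 probe sets disagreed in sign, running from -2.09 to 0.92 for GFPhigh minus GFP- in wild-type cells. Usp5 had 0.64 ± 0.80 and -0.08 ± 0.80 for GFPhigh minus GFP- in Nras and wild-type cells. Usp13 had 0.13 ± 0.75 and -0.67 ± 0.75, and its signals stayed between 32.6 and 91.2.

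Usp30 sits in the outer mitochondrial membrane and opposes the removal of damaged mitochondria. It read 294.9, 33.5 and 341.7 in Nras GFPhigh cells, 20.3, 12.4 and 28.2 in Nras GFP- cells, 71.8, 930 and 179.6 in wild-type GFPhigh cells and 112.6, 186.3 and 63.8 in wild-type GFP- cells. All Nras GFP- arrays lay below all arrays of the other 3 groups, and these 3 signals were below their array medians. Usp30 was above the array median on 6 arrays, none of them Nras GFP-. It thus passed the filter through the other groups, so its lower value in Nras GFP- cells is no support for a difference. GFPhigh minus GFP- in Nras cells was 2.96 ± 1.12 (log2, SE, unadjusted p 0.0206, adjusted p 0.351), and over both genotypes 2.01 ± 0.79 (adjusted p 0.528). Under the alternative settings the difference in Nras cells ran from 0.62 to 4.19. Nras minus wild-type in GFP- cells was -2.52 ± 1.12 (adjusted p 0.983), and 0.03 on the other probe set, which for the label difference in Nras cells gave 2.74.

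Usp47, a protease of DNA polymerase beta, was higher in all Nras than in all wild-type GFP- arrays, with 4723.4, 3206 and 2990.7 against 2802.9, 1798.5 and 1757.6, a difference of 0.78 ± 0.35 (log2, SE, unadjusted p 0.0407, adjusted p 0.983). Its other probe sets gave 0.26 and -1.26. Usp8, which sorts receptors at endosomes, was lower in all Nras than in all wild-type GFPhigh arrays, with 400.2, 266.3 and 391.7 against 630, 1046.6 and 797.4 and a difference of -1.22 ± 0.64 (adjusted p 0.649). The other Usp8 probe set gave 0.05 for Nras minus wild-type in GFPhigh cells. Usp19, an enzyme of the endoplasmic reticulum, had -0.41 ± 0.40 in that comparison, and Usp32, at Golgi and endosome membranes, 0.04 ± 0.47. Their other probe sets went the other way, with 0.28, 0.45 and 0.16 for Usp19 and -1.94 and -0.92 for Usp32.

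Usp50 passed the filter on low signals through 3 arrays, all of wild-type cells. It read 2.5, 13.9 and 6.3 in Nras GFPhigh cells, 4.3, 19 and 12.2 in Nras GFP- cells, 16.4, 633.6 and 69 in wild-type GFPhigh cells and 30.2, 208.3 and 155.4 in wild-type GFP- cells. Nras minus wild-type was -3.89 ± 1.37 (log2, SE, adjusted p 0.509) in GFPhigh cells, -3.31 ± 1.37 (adjusted p 0.983) in GFP- cells and -3.60 ± 0.97 (adjusted p 0.579) over both populations. A member that passes through the group where it is high had to differ, so these values are no support for a difference, and on the other probe set, with no array above 26.2, the difference in GFPhigh cells was 0.09.

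The other tested members were Usp20, Usp21, Usp24, Usp29, Usp31, Usp33, Usp34, Usp38, Usp40, Usp42, Usp45, Usp48, Usp49, Usp53 and Usp54. Members at an unadjusted p under 0.05 were all named above, so by that choice none of these stood under it between a pair of groups. Nras minus wild-type in GFPhigh cells ran from -2.33 ± 1.81 in Usp20 to 1.04 ± 0.83 in Usp54 (log2, SE). For GFPhigh minus GFP-, Nras cells gave -2.76 ± 1.65 in Usp38 to 2.83 ± 2.10 in Usp53, and wild-type cells -2.05 ± 1.65 in Usp38 to 0.53 ± 0.99 in Usp21. The within-group log2 SD was 2.66 for Usp20, 0.98 for Usp54, 2.39 for Usp38, 3.13 for Usp53 and 1.28 for Usp21. Usp34, which acts on axin in Wnt signalling, was steadier, at 0.58 and 512.6 to 1943.4 MAS5 units.

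The 5 members that did not pass the filter were Usp2, Usp17la, Usp26, Usp43 and Usp44. Usp44, a guard of the spindle checkpoint, was above the array median on 1 array and Usp43 on 2, and the other 3 on none. Their signals ran from 1.7 to 356.4, the highest being Usp43 in Nras GFPhigh replicate 2. Of the 45 tested, 28 were above the array median on all 12 arrays. The rule by symbol also took in Usp6nl, a regulator of the GTPase Rab5 that is no protease, and Usp46os2, a transcript from the strand opposite Usp46. Usp6nl was at 15.1 in wild-type GFPhigh replicate 2, against 520.9 or more on every other array, and Usp46os2 had no difference between a pair of groups at an unadjusted p under 0.05.

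Further genes, from lists of the other families of ubiquitin proteases and their relatives, were set beside the members. Not all of the listed genes encode proteases that remove ubiquitin. Of 31 tested, 6 were on the UCH list, which also held Cyld and Uspl1, 13 on the OTU list and 12 on the JAMM list. In limma 0 of the 31 passed the adjusted threshold in any comparison. Tnfaip3 (A20), which damps NF-kappaB signalling, read 1661.8, 4635.8 and 2390.8 in Nras GFPhigh cells, 1008, 171.8 and 1057.3 in Nras GFP- cells, 1254, 419.6 and 888.3 in wild-type GFPhigh cells and 1642.5, 1573.9 and 1583.6 in wild-type GFP- cells. GFPhigh minus GFP- was 2.22 ± 0.73 (log2, SE, adjusted p 0.283) in Nras cells, and the interaction was 3.26 ± 1.03 (adjusted p 0.956). Otub2 read 1816.3, 1025.8 and 188.4 in Nras GFPhigh cells, 125.4, 9.4 and 141.7 in Nras GFP- cells, 477.2, 339.3 and 397.1 in wild-type GFPhigh cells and 224.2, 969 and 213.4 in wild-type GFP- cells, with a label difference of 3.68 ± 1.15 (adjusted p 0.265) in Nras cells, and was lowest of its group in Nras GFPhigh replicate 3. In Nras against wild-type GFPhigh cells the OTU list had 1 higher and 0 lower at an unadjusted p under 0.05, against 3.17% and 5.12% of all genes, and the JAMM and UCH lists had 0. The granulocyte marker sum was also highest in Nras GFPhigh replicates 1 and 2, and its part in these values was not tested.

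Known substrates of USPs were read on 25 tested genes, of which 0 passed the adjusted threshold in limma. Bcl2l11, which encodes Bim, read 1.3, 2489.1 and 3376.6 in Nras GFPhigh cells, 1360.7, 1431.3 and 1797.5 in Nras GFP- cells, 894.6, 2.8 and 1690.9 in wild-type GFPhigh cells and 2822.8, 1292 and 3781.1 in wild-type GFP- cells, with Nras GFPhigh replicate 1 and wild-type GFPhigh replicate 2 far below the other arrays, both among the 4 of low weight. Chek1, a checkpoint kinase whose protein Usp7 stabilises, read 14.3, 8.2 and 173.3 in Nras GFPhigh cells, 550.4, 1478.2 and 1308.8 in Nras GFP- cells, 888.6, 401.1 and 228.9 in wild-type GFPhigh cells and 868.4, 720.8 and 800.2 in wild-type GFP- cells. All Nras GFPhigh arrays were below all others, with GFPhigh minus GFP- at -5.23 ± 1.03 (log2, SE, adjusted p 0.13) in Nras cells and Nras minus wild-type at -3.99 ± 1.03 (adjusted p 0.409) in GFPhigh cells. Pcna, a substrate of Usp1, was higher in all 6 Nras than in all 6 wild-type arrays, by 0.31 ± 0.10 over both populations (adjusted p 0.579, groups not overlapping and higher in 0.157% of all genes).

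Myc, which Usp28 and Usp36 protect, was lower in Nras GFPhigh than in Nras GFP- arrays, with 2293.6, 1978.1 and 2022.2 against 3531.8, 4438.5 and 3214.4 and a difference of -0.82 ± 0.30 (log2, SE, adjusted p 0.335). Clspn, a checkpoint mediator, had -3.39 ± 1.27 (adjusted p 0.348) and Fanci, the partner of Fancd2, -2.46 ± 0.93 (adjusted p 0.351) in that comparison. These mRNA signals say nothing of the proteins that USPs act on.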

How the data were processed

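The deposited intensity values are MAS5 signals, not logged, and the submitters' processing notes name MAS5 without a version. Of 45101 probe sets, 64 controls were left out, 34945 had 1 gene symbol in the platform annotation, 932 had several and 9160 none, and the last 2 kinds were not used. Before log2 was taken, the 3 values of 0 were raised to 0.1. Genes were tested where their probe set was above the array median on at least 3 arrays (12083 genes). Limma with an intensity trend was fitted over all 12 arrays with a mean for each group, giving 7 comparisons, two-sided, with Benjamini-Hochberg adjustment over all genes tested and a threshold of 0.05. SE is limma's moderated standard error. The number of arrays limits the precision. The members, lists and alternatives were chosen with earlier results of these data known. Named with values were Usp27x, Usp22, the members of highest and lowest mean signal, those of smallest p under 0.05 unadjusted in a comparison, members by role, and up to 4 genes of each other list. Of 50 members, 49 matched RefSeq's gene table (GRCm38.p6). A run on simulated data checked only that the code returned a known shift on average, and it says nothing of the calls made on these arrays. Versions were limma 3.58.1 and statmod 1.5.0 under R 4.3.3, and pandas 2.3.3, matplotlib 3.10.9 and numpy 2.4.6 under Python 3.11.15.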

Additional observations from a re-analysis of the deposited data

Results flagged for a closer look

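Usp27x drew attention because the label difference had opposite directions in the genotypes: all Nras GFPhigh arrays lay below all Nras GFP- arrays, and all wild-type GFPhigh arrays above all wild-type GFP- arrays. The difference between the label differences was -6.42 (log2), and it was not tested, since Usp27x was singled out from these arrays. Groups of 3 arrays were not searched for single outlying arrays. No other tested member had groups on opposite sides in this way.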

How the results depend on the processing

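The count of 0 called members held in all 7 comparisons under every alternative run: quantile normalization, median centring, array weights, no filter or the 75th percentile, pseudocounts of 15.5 and 100, probe set means, no shared probe sets, no trend, replicates 1 and 2, without the 4 arrays of low weight, and each array left out. In the 4 comparisons between pairs of groups it also held with only the groups compared. Usp27x kept its direction in every comparison. Its difference moved by more than its within-group SD for Nras minus wild-type in GFPhigh cells (-3.76 without the 4 arrays of low weight, -3.78 with a pseudocount of 100, -3.72 with probe set means), for GFPhigh minus GFP- in Nras cells (-2.86 and -2.75 with the last 2), and for the interaction (-5.61, -5.17 and -4.81). Median centring moved the median of all genes to 0.43 in Nras minus wild-type GFP- cells and -0.41 in GFPhigh minus GFP- Nras cells, and the member median followed, to 0.53 (with 32 of 45 higher, against 19), -0.69 (11 against 20), -0.73 for the interaction (15 against 22) and 0.20 for Nras over both populations (28 against 20), and 21 against 13 were higher in wild-type GFPhigh cells. The member median in Nras cells was 0.03 with no filter and 0.21 with probe set means, that over both genotypes 0.019 with probe set means, and that of the interaction 0.36, 0.30 and, from replicates 1 and 2, 0.49, with -0.22 to 0.35 over each array left out. The sign of these medians thus depends on the setting. Members under an unadjusted 0.05 numbered 2 to 5 (4 as reported) in Nras against wild-type GFPhigh cells, 0 to 6 (4) in GFP- cells and 1 to 5 (2) over both, and 2 to 7 (5) in GFPhigh against GFP- Nras cells, 0 to 2 (1) in wild-type cells, 1 to 7 (4) over both and 2 to 7 (4) for the interaction. Probe set means turned Usp47 to -0.072 and Usp3 to -0.70 in Nras minus wild-type GFP- cells, Usp12 to 0.42 and Usp3 to 0.33 in GFPhigh minus GFP- Nras cells, and Usp3 to 0.0047 in the interaction. Usp30 in Nras minus wild-type GFP- cells turned to 0.25 and 0.21 with pseudocounts of 100 and 15.5, and ran from -2.91 to 0.031 over each array left out, the last without wild-type GFPhigh replicate 2, which changed the probe set chosen. Fits of each probe set, chosen after seeing the data, turned Usp47 (-1.26), Usp30 (0.031) and Usp3 (-2.08, -1.85, -1.06) in GFP- cells, Usp50 (0.094) in GFPhigh cells, Usp12 (0.97, 1.58) and Usp3 (1.86, 1.98) in Nras cells, and Usp12 (1.34) and Usp3 (1.31, 1.23, 0.47) in the interaction. The cause was not tested. Samples of the same replicate number deviated from their group means with correlations of -0.044 to 0.152 over 18 pairs, 3 of them over 0.1, all between samples numbered 3, which share their low Xist signal. The other pairs were under 0.1, so the number was not used as a pairing. With a replicate block 0 members were called in each comparison, 4 instead of 2 stood under an unadjusted 0.05 in Nras over both populations, and the Usp27x interaction stayed at -6.42.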

Other observations

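Probe sets of the same member often disagreed. Usp47 on its dimmest probe set read 6318.3, 1778.5 and 556.6 in Nras GFPhigh cells, 16.2, 649 and 1657.7 in Nras GFP- cells, 13.6, 2491.8 and 1357.1 in wild-type GFPhigh cells and 938, 1112 and 231.8 in wild-type GFP- cells, while its brightest stayed between 1757.6 and 4723.4 on all arrays. Usp53 read 516.8, 111.2 and 556.3 in Nras GFPhigh cells, 191.9, 2.8 and 165.6 in Nras GFP- cells, 1637.9, 3.2 and 730.6 in wild-type GFPhigh cells and 226.2, 1260.7 and 543.1 in wild-type GFP- cells, with replicate 2 of Nras GFP- and of wild-type GFPhigh cells far below the rest, and an interaction of 4.61 ± 2.97 (log2, SE, adjusted p 0.956). Usp45, which acts on the repair nuclease subunit Ercc1, had an interaction of 3.23 ± 2.00 (adjusted p 0.956), and its lowest signal was 6.5 in Nras GFP- replicate 2.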
